A study of Mus musculus with 14 samples.

Results

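The loss of TSC1 and the Db genotype were compared in whole mouse islets, gene by gene, to find the transcripts that moved in opposite directions in these models and those that moved the same way. The comparison used 8 of the 14 RNA sequencing libraries of the series, all made from isolated whole islets, and joined their read count tables on the Ensembl gene identifier. RC_TSC1_KO (n = 2) and RC_Control (n = 2) were islets of mice 8 weeks old, and the design text places the knockout in β-cells. BKS_Db (n = 2) and BKS_Control (n = 2) were islets of mice 4 weeks old. The labels give C57BL/6 as the strain of all 8 libraries, although 4 of them carry the prefix BKS, and they spell out neither the Db allele, the prefix RC nor what drove the deletion. The labels do not say whether libraries of a group came from separate mice. The p-values reflect only how far libraries lay from others of their own group. All 8 libraries were fitted together, and this spread was estimated jointly over the groups of both models. A p-value of the Db effect therefore also depends on the spread of the RC libraries. Likewise, a p-value of the TSC1 KO effect also depends on the spread of the BKS libraries. Each model has its own controls, and the models differ in age, table and sequencing depth, so those cannot be told apart from the genotype in any difference between the 2 effects.

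TSC1, with its partner TSC2, holds the growth kinase complex mTORC1 in check, and mTORC1 in turn drives protein and lipid synthesis when nutrients are plentiful. Mice known as db lack a working leptin receptor, overeat and become obese and diabetic, and their β-cells face a sustained demand for insulin. Insulin is made in the endoplasmic reticulum (ER), folded by ER chaperones and stored with other peptides in dense-core granules, so the genes of this secretory path are among the most abundant in an islet. The title of the series places mTORC1 and the energy sensor AMPK in β-cell maturation and diabetes, and setting the 2 models side by side asks which transcripts they share.

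Tsc1 and Lepr were read first. The labels do not spell out the Db allele, so whole-gene counts of Lepr do not check that genotype. Tsc1 measured 17.8 and 38.6 CPM in RC_Control, 21.8 and 24.2 in RC_TSC1_KO, 28.1 and 18.1 in BKS_Control and 22.9 and 29.5 in BKS_Db, where CPM is the read count scaled to library size, adjusted for composition. The KO libraries lay inside the range of their controls, and the log2 effect was -0.30 ± 0.35 (adjusted p = 0.567) by edgeR's quasi-likelihood test. Counts over the whole gene do not show a deleted exon, so the label was not checked by them. The log2 effect was -0.863 without RC_Control 1, but RC_Control 1 itself, at 17.8 CPM, lay below the KO libraries, so its sign rests on RC_Control 2. Lepr, the leptin receptor, measured 10.4 and 4.41 CPM in RC_Control, 43.2 and 57.8 in RC_TSC1_KO, 1.61 and 0.355 in BKS_Control and 0.0799 and 0.279 in BKS_Db. The Db libraries were below their controls at a few counts, an effect of -2.38 ± 0.98 (adjusted p = 0.0874) that did not pass, though it did without either RC_Control library (adjusted p = 0.016 and 0.0161). In TSC1 KO the receptor's transcripts rose, with a log2 effect of 2.77 ± 0.45 (adjusted p = 0.00175).

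The libraries held 3507929 to 6212629 counted reads in the RC table and 9020767 to 17688772 in the BKS table. Mitochondrially encoded transcripts took 8.92% and 12.1% of counts in RC_Control and 39.3% and 46.2% in RC_TSC1_KO, but 0.151% to 0.561% in the 4 BKS libraries. Ins1 and Ins2 together took 24.5% and 27.9% of counts in RC_Control, 1.05% and 0.969% in RC_TSC1_KO, 61.0% and 70.0% in BKS_Control and 45.5% and 48.3% in BKS_Db. All 8 β-cell markers fell in TSC1 KO, as did 7 of 11 markers of the other islet endocrine cells, while 1 of the 11 rose. In Db 2 of the 11 rose and 1 fell, and 1 marker both rose in TSC1 KO and fell in Db. Summed over the list, those 11 markers measured 20240 and 24130 CPM in RC_Control and 2237 and 5546 in RC_TSC1_KO. The same sum was 5513 and 10900 in BKS_Control and 13700 and 15940 in BKS_Db, and none of the 11 was at 0 in all libraries. Their part in the results was not tested.

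Of 15702 genes with enough counts, 2024 (12.9%) were higher and 2353 (15.0%) lower in TSC1 KO than in control at an adjusted p under 0.05, and 2929 (18.7%) were higher and 2441 (15.5%) lower in Db. The difference between the 2 effects, the genotype by table interaction, passed for 4988 genes: the TSC1 KO effect lay above the Db effect for 2066 (13.2%) and below it for 2922 (18.6%). Of all 15702 genes, 4377 were called in TSC1 KO and 5370 in Db, and the overlap of these calls was not tested against those shares. Both effects passed for 1648 genes, which were 37.6% of those called in TSC1 KO and 30.7% of those called in Db. Among these, 863 (52.4%) moved in opposite directions and 785 (47.6%) moved the same way. Across all genes tested the 2 effects had a Pearson r of 0.009 and a Spearman rho of -0.008, a description across genes, which are not independent replicates.

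The opposite movers were unevenly divided. Lower in TSC1 KO and higher in Db were 612 genes (3.90% of all tested), and higher in TSC1 KO and lower in Db were 251 (1.60%). Higher in both were 368 (2.34%) and lower in both 417 (2.66%). The class sizes were not tested against the shares called in each model, so a size alone does not show a shared response. Both changes were at least 2-fold for 308, 132, 167 and 239 genes of these classes in that order. The counts depended on single libraries: without BKS_Db 2 the 4 classes held 303, 80, 141 and 180 genes, and over all 8 leave-outs they held 303 to 847, 80 to 382, 141 to 485 and 180 to 631. Each library other than RC_Control 2 moved at least 1 class by more than 1.5 times. In none of 19 alternative settings did a gene move from an opposite class to a same-way class. With scaling by library size alone the division became 742 and 74 genes for the opposite classes and 240 and 275 for the same-way classes, or 61.3% opposite, and the median log2 effect of all genes was -0.26 in TSC1 KO and 0.23 in Db, against -0.031 and -0.006 with TMM scaling. Base composition of the transcripts moved with the classes: the median GC content was 54.2% for genes lower in TSC1 KO and higher in Db, 44.99% for the reverse class and 50.1% for all genes tested, and with a GC trend removed the opposite classes held 512 and 188 genes. At the edge of the rule, Clip3 (adjusted p = 0.0502 in Db by edgeR) was the first opposite mover outside the threshold.

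**Figure D1:**
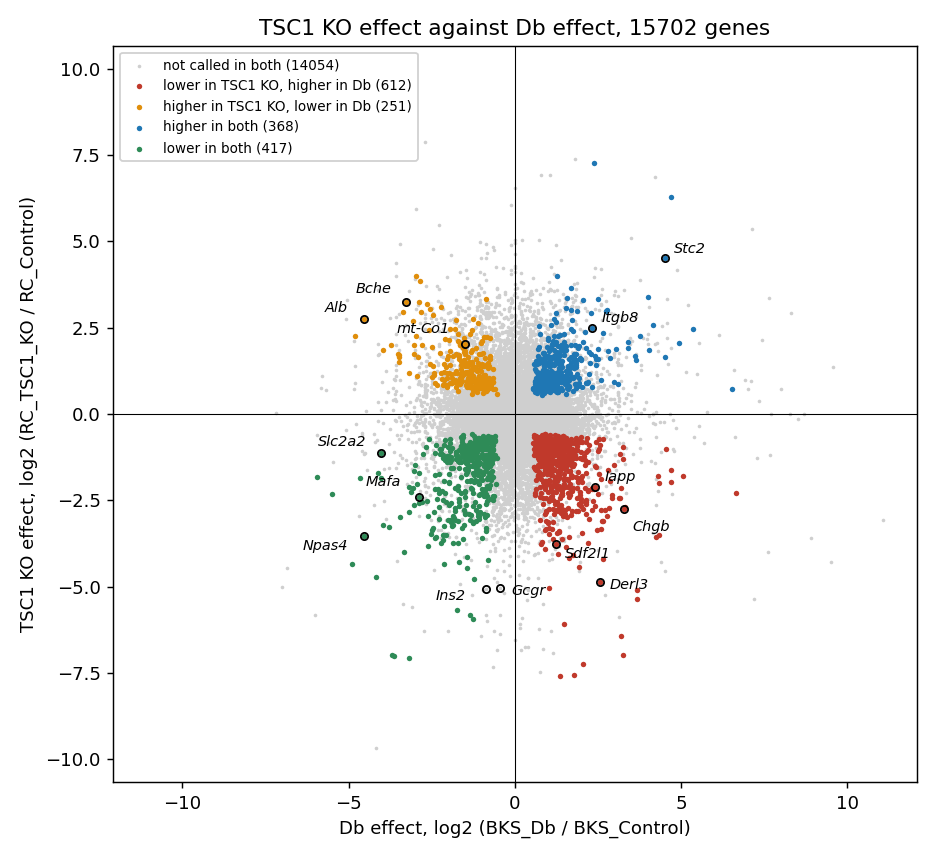
TSC1 KO effect (vertical axis, log2 of RC_TSC1_KO over RC_Control) against Db effect (horizontal axis, log2 of BKS_Db over BKS_Control) for each of 15702 genes, with the 4 classes called in both effects in colour and some named genes circled. The coloured points lie on all 4 sides of the axes, with the most, 612, at lower right (lower in TSC1 KO, higher in Db); Ins2 and Gcgr, circled, are in no class.

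Genes of the insulin granule moved apart. Of 28 genes in a list of granule and exocytosis proteins, 24 fell and 0 rose in TSC1 KO, while 12 rose and 1 fell in Db. Beside the counts of this and every later list stand the shares of all genes tested. These were 12.9% higher and 15.0% lower in TSC1 KO, and 18.7% higher and 15.5% lower in Db. For falling in TSC1 KO and rising in Db the share was 3.90%, and for the reverse 1.60%. It was 2.34% for genes higher in both and 2.66% for genes lower in both. A TSC1 KO effect above the Db effect was called for 13.2% and one below it for 18.6%. The list's median effects were -2.50 in TSC1 KO and 0.72 in Db on the log2 scale, beside -0.031 and -0.006 for all genes tested. Of its members, 9 fell in TSC1 KO and rose in Db, and Slc30a8 fell in both. The 12 rises in Db became 6 without BKS_Control 1, BKS_Db 1 or BKS_Db 2 and 5 without BKS_Control 2. The 9 opposite movers became 4 without BKS_Control 1 or BKS_Control 2 and 5 without BKS_Db 1 or BKS_Db 2. For this and the other lists, each library whose omission moved a count of 4 or more by over 1.5 times is named; counts of 3 or fewer often moved as much and are not followed further. Chgb, the granule core protein chromogranin B, measured 413 and 633 CPM in RC_Control, 100.5 and 54.0 in RC_TSC1_KO, 1212 and 942 in BKS_Control and 10450 and 10330 in BKS_Db. The KO libraries lay below both RC controls and the Db libraries far above both BKS controls. The log2 effects were -2.75 ± 0.40 (adjusted p = 0.00046) in TSC1 KO and 3.27 ± 0.41 (adjusted p = 0.000166) in Db by edgeR, and both passed in all 19 alternatives. Since whole islets were sequenced, fewer β-cells and less RNA per β-cell cannot be told apart in a fall of this kind.

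Other granule genes repeated that order of the groups. Vgf, which encodes a secreted peptide precursor, measured 21.8 and 16.0 CPM in RC_Control, 4.75 and 1.88 in RC_TSC1_KO, 119 and 121 in BKS_Control and 1188 and 962 in BKS_Db. Ptprn, encoding the granule membrane protein IA-2, measured 263 and 354 CPM in RC_Control, 47.0 and 11.98 in RC_TSC1_KO, 850.4 and 686 in BKS_Control and 4441 and 4135 in BKS_Db. Iapp, the β-cell peptide amylin that is co-secreted with insulin, measured 4625 and 5545 CPM in RC_Control, 1211 and 1157 in RC_TSC1_KO, 9664 and 11420 in BKS_Control and 60910 and 51850 in BKS_Db. In all 3 the KO libraries were lowest and the Db libraries highest, with no overlap with their controls. The log2 effects were -2.44 ± 0.36 (adjusted p = 0.000503) and 3.17 ± 0.31 (adjusted p = 3.48e-05) for Vgf. They were -2.10 ± 0.41 (adjusted p = 0.00251) and 2.42 ± 0.41 (adjusted p = 0.00103) for Iapp. For Ptprn they were -3.37 ± 0.53 (adjusted p = 0.00127) and 2.48 ± 0.50 (adjusted p = 0.00426), and the Db call was lost in 1 of 19 alternative settings, with adjusted p = 0.0567 without BKS_Control 2. Pcsk2, the proinsulin convertase, also fell in TSC1 KO, with a log2 effect of -3.44 ± 0.41 (adjusted p = 0.000118), and rose in Db, with an effect of 1.28 ± 0.37 (adjusted p = 0.0194). The Db call was lost in 4 of 19 alternative settings, with adjusted p = 0.1 without BKS_Control 1, 0.0814 without BKS_Control 2, 0.0831 without BKS_Db 1 and 0.119 without BKS_Db 2. Pcsk1, the other convertase, fell in TSC1 KO, with a log2 effect of -2.78 ± 0.36 (adjusted p = 0.000406) and its Db effect was -0.16 ± 0.33 (adjusted p = 0.728).

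The machinery that folds and clears proteins in the ER was split the same way. In a list of 31 ER chaperones and unfolded protein response genes, 24 fell and 1 rose in TSC1 KO, 16 rose and 1 fell in Db, and 14 did both in opposite senses. The medians were -1.17 and 0.77. The 16 rises in Db became 9 without BKS_Control 1 or BKS_Db 2 and 10 without BKS_Db 1. The 14 opposite movers became 8 without BKS_Control 1, BKS_Db 1 or BKS_Db 2. Derl3, a component of the degradation channel for misfolded ER proteins, measured 17.8 and 21.9 CPM in RC_Control, 0.819 and 0.470 in RC_TSC1_KO, 23.7 and 35.5 in BKS_Control and 158 and 192 in BKS_Db. Sdf2l1, part of an ER chaperone complex, measured 56.4 and 58.0 CPM in RC_Control, 4.75 and 3.52 in RC_TSC1_KO, 203 and 221 in BKS_Control and 503 and 491 in BKS_Db. Creld2, an ER protein induced by folding stress, measured 57.2 and 58.6 CPM in RC_Control, 15.1 and 15.0 in RC_TSC1_KO, 127 and 114 in BKS_Control and 442 and 492 in BKS_Db. In each the KO libraries were the lowest of the 8 and the Db libraries the highest. Derl3 changed by -4.86 ± 0.40 (adjusted p = 2.56e-05) in TSC1 KO, from a summed 7 counts in the KO libraries, and by 2.57 ± 0.25 (adjusted p = 3.45e-05) in Db. Sdf2l1 changed by -3.76 ± 0.26 (adjusted p = 2.19e-05) and 1.23 ± 0.21 (adjusted p = 0.00106), and Creld2 by -1.94 ± 0.22 (adjusted p = 0.000104) and 1.95 ± 0.21 (adjusted p = 6.26e-05). The calls of these 3 genes held in all 19 alternatives.

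The chaperones Hyou1 and Hspa5 moved in the same senses. Hyou1 measured 183 and 286 CPM in RC_Control, 53.9 and 51.2 in RC_TSC1_KO, 705 and 463 in BKS_Control and 1843 and 2045 in BKS_Db, with effects of -2.16 ± 0.31 (adjusted p = 0.00043) and 1.74 ± 0.30 (adjusted p = 0.00118). Hspa5, the abundant chaperone BiP, measured 1031 and 739.7 CPM in RC_Control, 311 and 222 in RC_TSC1_KO, 925 and 857 in BKS_Control and 1802 and 1421 in BKS_Db, with effects of -1.73 ± 0.30 (adjusted p = 0.00124) and 0.85 ± 0.29 (adjusted p = 0.0387). The groups of both genes did not overlap with their controls. The Db call of Hspa5 was lost in 7 of 19 alternative settings, with adjusted p = 0.111 without BKS_Control 1, 0.146 without BKS_Control 2, 0.23 without BKS_Db 1 and 0.101 without BKS_Db 2.

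Of 40 genes of ER translocation and secretory traffic, 27 fell in TSC1 KO and 0 rose, and in Db 15 rose and 0 fell, with medians of -0.90 and 0.25. Of these members, 13 fell in TSC1 KO and rose in Db. The 15 rises in Db became 9 without BKS_Control 1 and 8 without BKS_Db 2. The 13 opposite movers became 7 without RC_TSC1_KO 1 or BKS_Db 2 and 6 without RC_TSC1_KO 2. Ssr4, a subunit of the complex beside the ER translocon, measured 122 and 137 CPM in RC_Control, 31.1 and 29.6 in RC_TSC1_KO, 118 and 146 in BKS_Control and 287 and 368 in BKS_Db. Srprb, a subunit of the receptor that docks ribosomes at the ER, measured 32.0 and 31.4 CPM in RC_Control, 13.3 and 14.3 in RC_TSC1_KO, 42.2 and 43.9 in BKS_Control and 160.2 and 139 in BKS_Db. Both genes were lowest in the KO libraries and highest in the Db libraries. Ssr4 changed by -2.09 ± 0.23 (adjusted p = 9.17e-05) and 1.31 ± 0.22 (adjusted p = 0.00098), and Srprb by -1.20 ± 0.21 (adjusted p = 0.00124) and 1.80 ± 0.20 (adjusted p = 7.03e-05), and these calls held in all 19 alternatives.

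**Figure D2:**
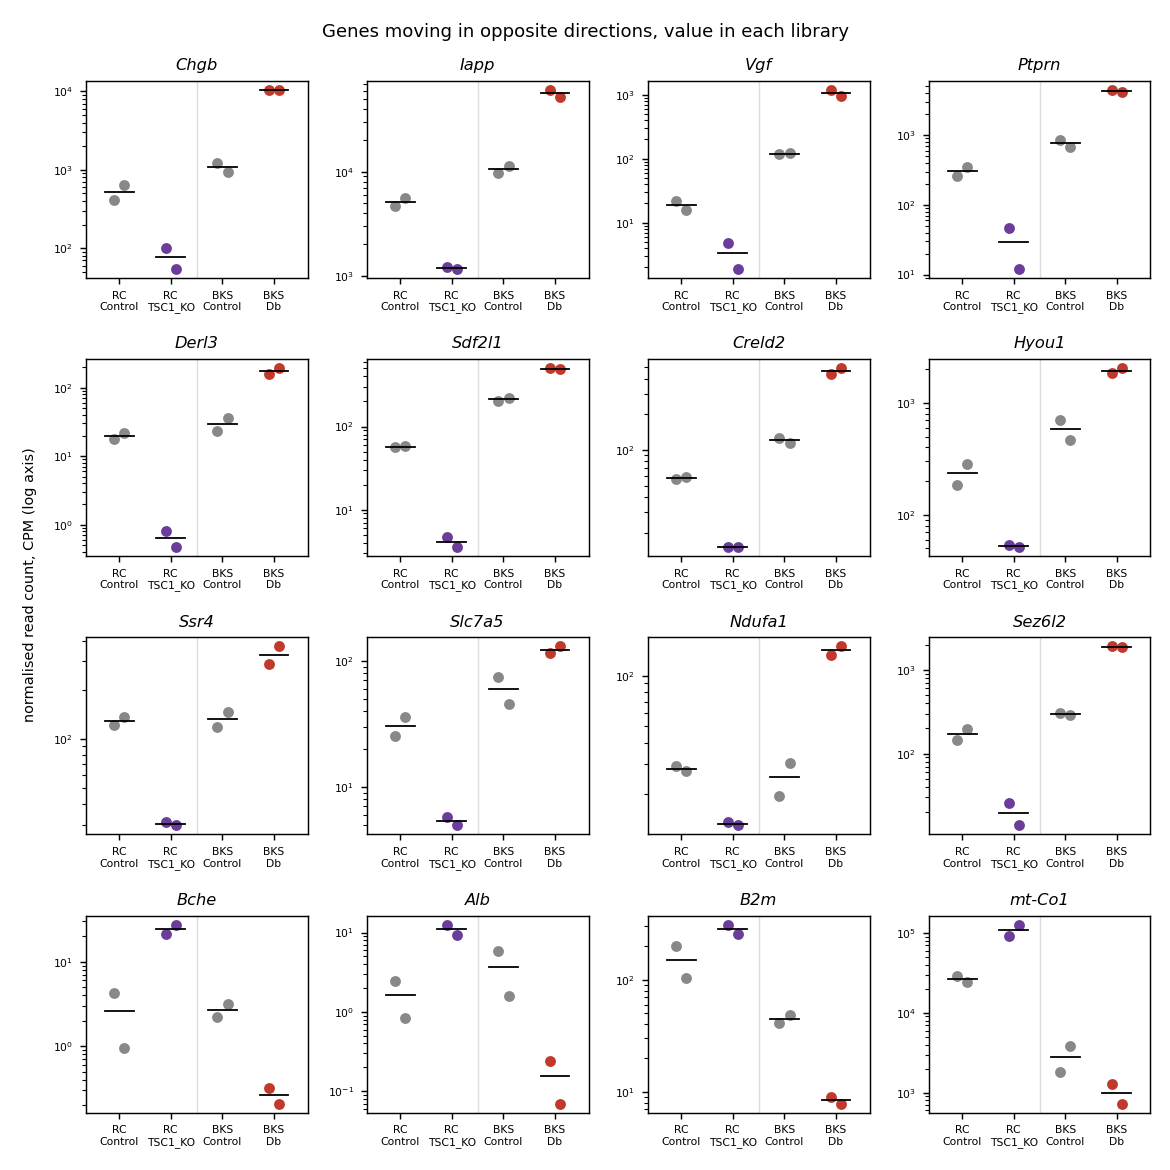
Normalised read count (CPM, log axis) of 16 opposite movers in each of the 8 libraries, 2 per group; the bar is the group mean. In the first 12 panels both RC_TSC1_KO points lie below RC_Control and both BKS_Db points above BKS_Control, as for Chgb, which spans 54.0 CPM in RC_TSC1_KO to 10450 in BKS_Db; in the last 4 (Bche, Alb, B2m, mt-Co1) the order is reversed.

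ATF4, a transcription factor made when amino acids run short or folding stress rises, switches on amino acid transport and synthesis. Of 30 genes in the ATF4 and amino acid list, 9 fell and 2 rose in TSC1 KO, while 17 rose and 1 fell in Db, with medians of -0.32 and 1.01. The 6 members that fell in TSC1 KO and rose in Db were Chac1, Asns, Mthfd2, Pck2, Sesn2 and Slc7a5, of which Mthfd2 and Pck2 were named after their values were seen. The 17 rises in Db became 11 without BKS_Control 2, BKS_Db 1 or BKS_Db 2. The 6 opposite movers became 2 without RC_TSC1_KO 1 or BKS_Db 1, 1 without RC_TSC1_KO 2 or BKS_Db 2 and 3 without BKS_Control 1 or BKS_Control 2. The KO call of Sesn2 was lost in 14 of 19 alternative settings, with adjusted p = 0.15 without RC_Control 2, 0.125 without RC_TSC1_KO 1, 0.154 without RC_TSC1_KO 2, 0.0682 without BKS_Db 1 and 0.0678 without BKS_Db 2. The KO call of Pck2 was lost without RC_TSC1_KO 2 (adjusted p = 0.0849), and the Db call of Mthfd2 (adjusted p = 0.0412) was lost without any 1 library other than the RC_Control libraries (adjusted p = 0.0557 to 0.19). Of 20 aminoacyl-tRNA synthetase genes, which load tRNAs and are themselves ATF4 targets in part, 8 fell and 0 rose in TSC1 KO, and 10 rose and 3 fell in Db. The 8 falls in TSC1 KO became 5 without RC_TSC1_KO 1 and 1 without RC_TSC1_KO 2. The 10 rises in Db became 4 without BKS_Control 2 or BKS_Db 2 and 6 without BKS_Db 1.

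The promoters of this list were read for the ATF4 composite element, TGATGNAA on either strand. RefSeq windows (GRCm38.p6, 250 bases before to 50 after a start) were found for 11028 of the 15702 genes tested. The element lay in 7 of 27 windowed members of the list (25.9%) and in 308 of all 11028 (2.79%). The list was chosen for ATF4 and the amino acid response, so its own share says nothing about the models. By class, the element lay in 15 of 464 windows (3.23%) of genes lower in TSC1 KO and higher in Db. It lay in 4.3% of the reverse class, 4.35% of genes higher in both and 2.75% of genes lower in both. The class shares were not tested. Of the 5 opposite movers of the list with a window, 3 held it: Asns, Chac1 and Pck2, which are shown for that reason. The 250 bases upstream of each start are printed 5′ to 3′ on the gene's strand, with the element in capitals and, in Asns only, a Maf element (TGCTGAC, here on the opposite strand) in capitals before it.
Asns (chr6:7693210-7693459, minus strand): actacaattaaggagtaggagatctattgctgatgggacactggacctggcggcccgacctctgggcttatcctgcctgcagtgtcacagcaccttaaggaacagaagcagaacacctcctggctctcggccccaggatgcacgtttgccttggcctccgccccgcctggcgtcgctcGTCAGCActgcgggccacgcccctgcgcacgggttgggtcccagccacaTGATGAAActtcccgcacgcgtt
Chac1 (chr2:119350992-119351241, plus strand): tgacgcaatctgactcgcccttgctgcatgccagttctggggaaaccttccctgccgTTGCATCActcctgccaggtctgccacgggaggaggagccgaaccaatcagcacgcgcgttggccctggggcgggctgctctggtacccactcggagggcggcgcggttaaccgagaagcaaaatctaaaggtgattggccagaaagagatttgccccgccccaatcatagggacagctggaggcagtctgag
Pck2 (chr14:55540016-55540265, plus strand): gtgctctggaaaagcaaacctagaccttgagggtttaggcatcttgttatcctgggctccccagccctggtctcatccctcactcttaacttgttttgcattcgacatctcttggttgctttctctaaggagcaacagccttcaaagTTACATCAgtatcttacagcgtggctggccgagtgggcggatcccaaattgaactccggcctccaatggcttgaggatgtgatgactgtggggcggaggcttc
A match of letters is a description and not a bound site.

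Slc7a5, the large neutral amino acid transporter, measured 25.1 and 36.03 CPM in RC_Control, 5.73 and 4.93 in RC_TSC1_KO, 74.4 and 45.1 in BKS_Control and 116 and 130.4 in BKS_Db. Asns, asparagine synthetase, measured 34.8 and 34.9 CPM in RC_Control, 12.4 and 11.3 in RC_TSC1_KO, 25.0 and 24.7 in BKS_Control and 37.5 and 36.8 in BKS_Db. Chac1, which breaks down glutathione, measured 18.7 and 18.2 CPM in RC_Control, 1.80 and 3.05 in RC_TSC1_KO, 5.84 and 21.0 in BKS_Control and 41.9 and 33.1 in BKS_Db. The KO libraries were the lowest and the Db libraries the highest of each gene, and the BKS_Control libraries lay far apart in Chac1. The effects were -2.51 ± 0.31 (adjusted p = 0.000159) and 1.04 ± 0.26 (adjusted p = 0.00849) for Slc7a5, whose Db call was lost in 3 of 19 alternative settings, with adjusted p = 0.082 without BKS_Control 2 and 0.0757 without BKS_Db 2. For Asns they were -1.55 ± 0.21 (adjusted p = 0.000247) and 0.58 ± 0.19 (adjusted p = 0.0337). The Db call of Asns was lost in 9 of 19 alternative settings, with adjusted p = 0.0578 without RC_TSC1_KO 1, 0.0573 without RC_TSC1_KO 2, 0.101 without BKS_Control 1, 0.101 without BKS_Control 2, 0.111 without BKS_Db 1 and 0.116 without BKS_Db 2. For Chac1 they were -2.96 ± 0.61 (adjusted p = 0.00922) and 1.503 ± 0.48 (adjusted p = 0.0435). Its KO call was lost in 1 of 19 alternative settings, with adjusted p = 0.0679 without RC_TSC1_KO 1, and its Db call was lost in 10 of 19 alternative settings, with adjusted p = 0.0734 without RC_Control 1, 0.0767 without RC_Control 2, 0.0585 without RC_TSC1_KO 1, 0.0576 without RC_TSC1_KO 2, 0.075 without BKS_Control 1, 0.167 without BKS_Db 1 and 0.115 without BKS_Db 2.

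Atf4 itself fell in TSC1 KO, with a log2 effect of -0.87 ± 0.24 (adjusted p = 0.0155), a call that was lost in 2 of 19 alternative settings, with adjusted p = 0.0784 without RC_TSC1_KO 2, and its Db effect was 0.42 ± 0.23 (adjusted p = 0.176). Of the list's other members, Stc2, a secreted glycoprotein, rose in both models. Trib3, a pseudokinase target of ATF4, rose in Db, with a log2 effect of 1.59 ± 0.34 (adjusted p = 0.00369), with a TSC1 KO effect of 0.73 ± 0.37 (adjusted p = 0.162) and a difference of -0.86 ± 0.50 (adjusted p = 0.207).

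Of all genes tested, 15.0% fell and 12.9% rose in TSC1 KO, and 18.7% rose and 15.5% fell in Db. Among genes of the mTORC1 pathway itself, 10 of 35 fell and 1 rose in TSC1 KO, and 8 rose and 5 fell in Db. The Db counts lie near the shares of all genes and are not read as a result about the pathway. The 10 falls in TSC1 KO became 6 without RC_Control 2 or RC_TSC1_KO 1 and 3 without RC_TSC1_KO 2. The 8 rises in Db became 5 without BKS_Db 2. The 5 falls in Db became 1 without BKS_Control 2 or BKS_Db 2 and 2 without BKS_Db 1. The 4 opposite movers became 1 without RC_TSC1_KO 2 or BKS_Db 2. These 4 fell in TSC1 KO and rose in Db, as did 3.90% of all genes tested, and so small a count is not read as a result. They were Lamtor2 of the lysosomal Ragulator, Castor2 of the arginine sensor family and Nprl3 of the GATOR1 inhibitor complex. The other was Sesn2, a leucine sensor, whose lost KO calls are given above. The KO call of Nprl3 was lost in 1 of 19 alternative settings, with adjusted p = 0.0532 without RC_TSC1_KO 2, and its Db call was lost in 1 of 19 alternative settings, with adjusted p = 0.0549 without BKS_Db 2. Lamtor2 measured 26.1 and 21.4 CPM in RC_Control, 15.2 and 13.2 in RC_TSC1_KO, 17.5 and 16.7 in BKS_Control and 101 and 97.3 in BKS_Db, with effects of -0.74 ± 0.21 (adjusted p = 0.0221) and 2.53 ± 0.21 (adjusted p = 1.67e-05). Its KO call was lost in 3 of 19 alternative settings, with adjusted p = 0.121 without RC_TSC1_KO 2. Castor2 measured 92.4 and 126 CPM in RC_Control, 34.2 and 22.1 in RC_TSC1_KO, 92.9 and 68.3 in BKS_Control and 159 and 171 in BKS_Db, with effects of -1.95 ± 0.27 (adjusted p = 0.000315) and 1.03 ± 0.26 (adjusted p = 0.00857), and its Db call was lost in 3 of 19 alternative settings, with adjusted p = 0.0856 without BKS_Control 2 and 0.0709 without BKS_Db 2. Groups of both genes did not overlap. Mtor, the kinase, measured 22.4 and 32.6 CPM in RC_Control, 26.4 and 32.7 in RC_TSC1_KO, 18.3 and 24.9 in BKS_Control and 33.5 and 43.8 in BKS_Db. It rose in Db, with a log2 effect of 0.85 ± 0.26 (adjusted p = 0.0225) while the RC groups overlapped, and the difference of -0.75 ± 0.36 (adjusted p = 0.13) did not pass, though it did without RC_Control 1 (adjusted p = 0.0178) and with scaling by library size alone. The Db call of Mtor was lost in 4 of 19 alternative settings, with adjusted p = 0.17 without BKS_Control 1 and 0.183 without BKS_Db 2. Of 12 AMPK subunit and upstream kinase genes, 2 fell in TSC1 KO, and 1 rose and 2 fell in Db. The shares of all genes tested were 15.0%, 18.7% and 15.5% in that order, and counts this small are not read as a result about the list. Prkaa1, a catalytic subunit, fell in Db, with a log2 effect of -0.89 ± 0.22 (adjusted p = 0.00909) and a difference of 0.45 ± 0.32 (adjusted p = 0.297). Its Db call was lost in 4 of 19 alternative settings, among them without BKS_Control 2 and without BKS_Db 2.

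Nuclear and mitochondrial genes of the respiratory chain had median effects of opposite sign in each model. Of 75 nuclear OXPHOS subunit genes, with medians of -0.40 in TSC1 KO and 0.44 in Db, 15 fell and 0 rose in TSC1 KO, while 28 rose and 12 fell in Db, and 11 did both in opposite senses. The 15 falls in TSC1 KO became 8 without RC_TSC1_KO 1. The 28 rises in Db became 18 without BKS_Control 2 or BKS_Db 2. The 12 falls in Db became 7 without BKS_Control 2 and 5 without BKS_Db 2. The 11 opposite movers became 17 without RC_Control 2 and 6 without RC_TSC1_KO 1, BKS_Control 2, BKS_Db 1 or BKS_Db 2. Ndufa1, a small subunit of complex I, measured 29.1 and 27.1 CPM in RC_Control, 13.6 and 12.9 in RC_TSC1_KO, 19.4 and 30.4 in BKS_Control and 133 and 149 in BKS_Db. The KO libraries were lowest and the Db libraries far above both of their controls. Its effects were -1.08 ± 0.25 (adjusted p = 0.00625) and 2.51 ± 0.24 (adjusted p = 3.05e-05), and both calls held in all 19 alternatives.

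The mitochondrially encoded genes lay on the other side: 9 of 13 rose in TSC1 KO and 0 fell, 2 fell in Db and 0 rose, and for 10 the effects differed. The 9 rises in TSC1 KO became 3 without RC_Control 2 and 2 without RC_TSC1_KO 2. The 10 differences above 0 became 6 without RC_TSC1_KO 1 or RC_TSC1_KO 2 and 4 without BKS_Db 2. With limma-voom the effects differed for 5. Their median effects were 2.24 and -1.38. mt-Co1, a catalytic subunit of complex IV, measured 29140 and 24280 CPM in RC_Control, 92260 and 127000 in RC_TSC1_KO, 1795 and 3865 in BKS_Control and 1279 and 729 in BKS_Db. mt-Nd5, a subunit of complex I, measured 6163 and 5078 CPM in RC_Control, 44730 and 50970 in RC_TSC1_KO, 148 and 978 in BKS_Control and 399 and 227 in BKS_Db. The KO libraries were above their controls in both genes; in mt-Nd5 the Db libraries lay between the BKS controls. mt-Co1 changed by 2.04 ± 0.53 (adjusted p = 0.0125) and -1.495 ± 0.52 (adjusted p = 0.0407). Its KO call was lost in 2 of 19 alternative settings, with adjusted p = 0.0555 without RC_Control 2, and its Db call was lost in 7 of 19 alternative settings, with adjusted p = 0.273 without BKS_Control 2, 0.108 without BKS_Db 1 and 0.338 without BKS_Db 2. The list's median Db effect ran from -1.98 to 0.24 over the alternatives, crossing 0, while the median TSC1 KO effect ran from 1.84 to 2.56. The share of counts that these transcripts took, given above for each group, moved with the result, and its part was not tested.

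Among the 251 genes higher in TSC1 KO and lower in Db, several with the largest paired changes were low in abundance. Bche, the esterase butyrylcholinesterase, measured 4.26 and 0.945 CPM in RC_Control, 21.4 and 27.5 in RC_TSC1_KO, 2.19 and 3.20 in BKS_Control and 0.320 and 0.209 in BKS_Db. Nr5a2, a nuclear receptor of the exocrine pancreas and liver, measured 0.897 and 1.89 CPM in RC_Control, 11.1 and 14.8 in RC_TSC1_KO, 1.31 and 2.67 in BKS_Control and 0.320 and 0.279 in BKS_Db. Slc28a3, a nucleoside transporter, measured 5.72 and 2.52 CPM in RC_Control, 24.1 and 35.7 in RC_TSC1_KO, 4.38 and 3.02 in BKS_Control and 0.799 and 0.558 in BKS_Db. The KO libraries were highest and the Db libraries lowest of the 8 in each. Bche changed by 3.23 ± 0.51 (adjusted p = 0.00115) and -3.28 ± 0.75 (adjusted p = 0.00726), Nr5a2 by 3.19 ± 0.47 (adjusted p = 0.000491) and -2.66 ± 0.62 (adjusted p = 0.0061), and Slc28a3 by 2.85 ± 0.39 (adjusted p = 0.000289) and -2.45 ± 0.50 (adjusted p = 0.00317). The Db call of Bche was lost in 2 of 19 alternative settings, with adjusted p = 0.0605 without BKS_Control 2 and 0.0846 without BKS_Db 2. That of Nr5a2 was lost in 2 of 19 alternative settings, with adjusted p = 0.0715 without BKS_Control 2 and 0.0623 without BKS_Db 2. That of Slc28a3 was lost in 1 of 19 alternative settings, with adjusted p = 0.0512 without BKS_Db 2.

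B2m, the light chain of MHC class I, was in this class too. Of 23 interferon and MHC class I genes, 5 rose and 2 fell in TSC1 KO, 3 rose and 6 fell in Db, and the effects differed for 11, with the TSC1 KO effect above for 10. The 5 rises in TSC1 KO became 12 without RC_Control 1, 3 without RC_Control 2 and 1 without RC_TSC1_KO 1. The 6 falls in Db became 2 without BKS_Control 1 or BKS_Db 1. The 10 differences above 0 became 5 without RC_TSC1_KO 1 or BKS_Control 1 and 6 without BKS_Db 1. B2m itself measured 199 and 104 CPM in RC_Control, 312 and 257 in RC_TSC1_KO, 40.9 and 48.9 in BKS_Control and 9.03 and 7.81 in BKS_Db. The KO libraries were the highest and the Db libraries the lowest. Its effects were 0.91 ± 0.28 (adjusted p = 0.0297) and -2.41 ± 0.31 (adjusted p = 0.000206). The KO call was lost in 8 of 19 alternative settings, with adjusted p = 0.199 without RC_Control 2, 0.183 without RC_TSC1_KO 1, 0.0667 without RC_TSC1_KO 2, 0.0503 without BKS_Control 2, 0.0616 without BKS_Db 1 and 0.0613 without BKS_Db 2. Nqo1, a quinone reductase of the antioxidant response, measured 2.58 and 2.84 CPM in RC_Control, 9.50 and 8.46 in RC_TSC1_KO, 7.60 and 5.16 in BKS_Control and 0.240 and 0.837 in BKS_Db, with effects of 1.73 ± 0.43 (adjusted p = 0.0104) and -3.50 ± 0.50 (adjusted p = 0.000337). Its KO call was lost in 1 of 19 alternative settings, with adjusted p = 0.0766 without RC_TSC1_KO 1. Of 26 immediate early genes, which respond within minutes to stimuli, 4 rose and 1 fell in TSC1 KO and 2 rose and 11 fell in Db. The 4 rises in TSC1 KO became 14 without RC_Control 1, 2 without RC_Control 2 and 1 without RC_TSC1_KO 2. The 11 falls in Db became 4 without BKS_Control 2, 5 without BKS_Db 1 and 2 without BKS_Db 2.

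The 8 β-cell markers, insulin genes included, all fell in TSC1 KO, and in Db 5 fell and 1 rose. The 5 falls in Db became 3 without BKS_Control 1 or BKS_Db 2 and 2 without BKS_Db 1. Summed, they measured 166500 and 189100 CPM in RC_Control, 8986 and 9349 in RC_TSC1_KO, 817800 and 1274000 in BKS_Control and 714400 and 614800 in BKS_Db, where CPM is per scaled library size and a sum can exceed the reads it is counted per. Markers of other cell types also moved. Of 10 endothelial markers, 7 rose and 0 fell in TSC1 KO, and 3 rose and 4 fell in Db; summed, they measured 1975 and 2159 CPM in RC_Control, 3161 and 4257 in RC_TSC1_KO, 1307 and 1351 in BKS_Control and 1083 and 1104 in BKS_Db. The 7 rises in TSC1 KO became 4 without RC_TSC1_KO 1. The 4 falls in Db became 1 without BKS_Control 1 and 2 without BKS_Control 2, BKS_Db 1 or BKS_Db 2. Of 10 duct markers, 4 rose in TSC1 KO, and 2 rose and 1 fell in Db, with sums of 259.6 and 771 CPM in RC_Control, 1665 and 2259 in RC_TSC1_KO, 572 and 575 in BKS_Control and 1223 and 1303 in BKS_Db. The 4 rises in TSC1 KO became 9 without RC_Control 1, 7 without RC_Control 2 and 2 without RC_TSC1_KO 2. The 12 mesenchymal markers summed to 731 and 974 CPM in RC_Control and to 1031 and 3662 in RC_TSC1_KO, and to 443 and 592 in BKS_Control and 856 and 914 in BKS_Db. The 14 macrophage and other immune markers were 260.1 and 314 CPM in RC_Control, 223 and 225 in RC_TSC1_KO, 257 and 258 in BKS_Control and 203 and 245 in BKS_Db. None of these markers was at 0 in all libraries. The 11 stomach mucosa markers summed to 17.4 and 20.0 CPM in RC_Control, 138 and 227 in RC_TSC1_KO, 9.60 and 9.64 in BKS_Control and 1.76 and 3.14 in BKS_Db, with Gkn1, Gkn2, Tff1 and Muc5ac at 0 throughout. The 15 acinar markers summed to 1656 and 2506 CPM in RC_Control, 1021 and 2534 in RC_TSC1_KO, 99.5 and 106 in BKS_Control and 330.2 and 556 in BKS_Db. The 7 neural and Schwann cell markers summed to 18.5 and 30.4 CPM in RC_Control, 21.2 and 41.1 in RC_TSC1_KO, 8.89 and 10.96 in BKS_Control and 12.4 and 13.3 in BKS_Db. The 6 erythroid markers summed to 30.1 and 84.3 CPM in RC_Control, 85.3 and 149.8 in RC_TSC1_KO, 14.2 and 24.7 in BKS_Control and 55.8 and 85.3 in BKS_Db. Of 14 tested acinar markers, 1 fell in TSC1 KO and 5 rose in Db. Of 5 tested stomach markers, 4 rose and 1 fell in TSC1 KO, and 1 fell in Db. Of 12 mesenchymal markers, 2 rose in TSC1 KO, and 2 rose and 1 fell in Db. Of 12 tested immune markers, 2 fell in TSC1 KO and 4 in Db. The acinar rises moved by over 1.5 times without BKS_Control 1, BKS_Control 2 or BKS_Db 1, and the immune falls in Db without any 1 BKS library. None of the tested neural and erythroid markers passed in TSC1 KO, while in Db 1 of 7 neural markers fell and 3 of 5 tested erythroid markers rose. Their part in the results was not tested.

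**Figure D3:**
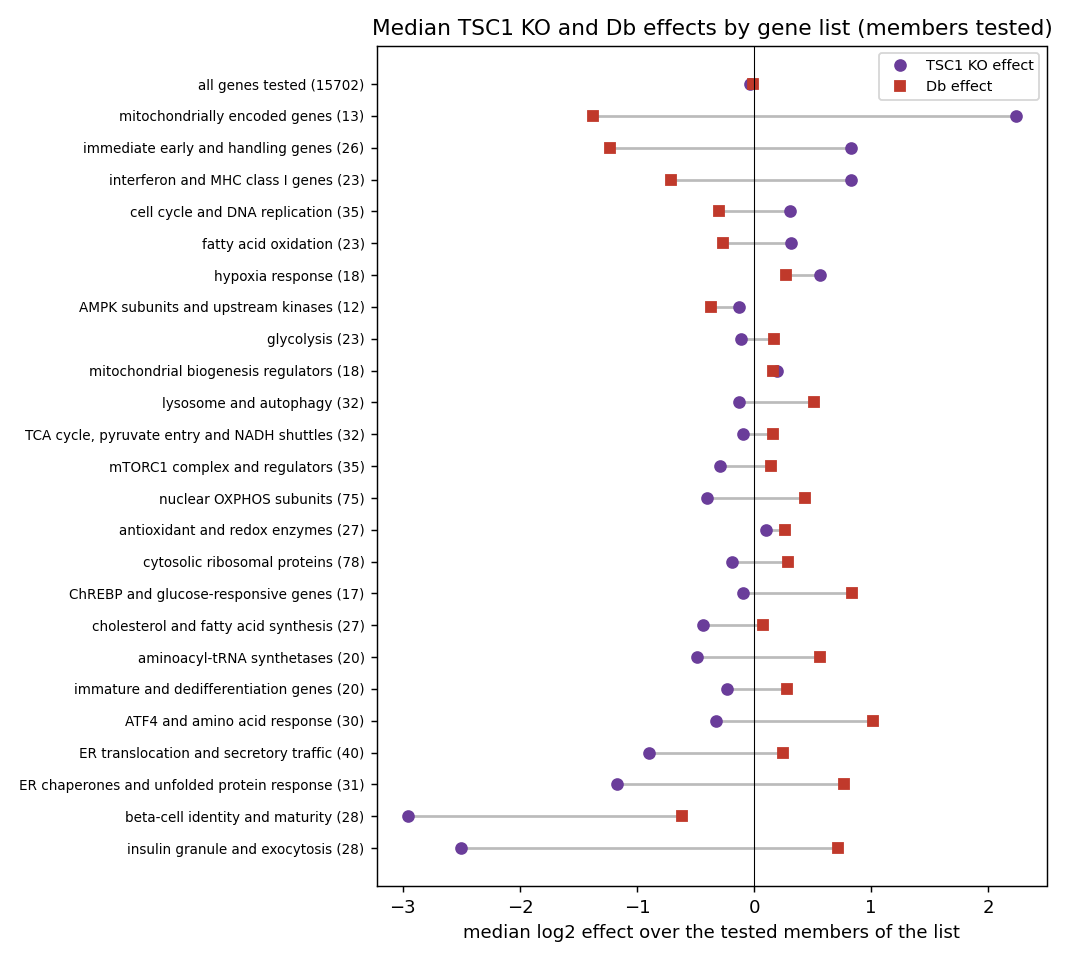
Median log2 effect over the tested members of 24 gene lists (number tested in brackets) and over all genes tested, for TSC1 KO (circles) and Db (squares), ordered by the median difference between the effects. Granule, ER and β-cell identity lists lie at the foot, with granule at -2.50 and 0.72, and the mitochondrially encoded genes near the top at 2.24 and -1.38.

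Genes of β-cell identity were among the genes lower in both models. Of 28 tested genes of β-cell identity and maturity, 26 fell and 0 rose in TSC1 KO, and 11 fell and 3 rose in Db; 11 fell in both. The medians were -2.96 and -0.62, and 20 members had a TSC1 KO effect below the Db effect. Mafa, which switches on insulin and other genes as β-cells mature, measured 23.3 and 45.6 CPM in RC_Control, 6.88 and 6.11 in RC_TSC1_KO, 1598 and 884 in BKS_Control and 159.5 and 179.6 in BKS_Db. Slc30a8, the zinc transporter of the insulin granule, measured 238 and 365 CPM in RC_Control, 31.3 and 22.3 in RC_TSC1_KO, 341 and 368 in BKS_Control and 53.0 and 70.3 in BKS_Db. Trpm5, a cation channel that shapes insulin secretion, measured 91.2 and 115 CPM in RC_Control, 12.9 and 13.4 in RC_TSC1_KO, 74.4 and 70.6 in BKS_Control and 10.3 and 13.2 in BKS_Db. Both mutant groups were below their controls with no overlap. The log2 effects on Mafa were -2.40 ± 0.40 (adjusted p = 0.00122) in TSC1 KO and -2.87 ± 0.36 (adjusted p = 0.000228) in Db, with a difference of 0.47 ± 0.52 (adjusted p = 0.518). For Slc30a8 the effects were -3.48 ± 0.29 (adjusted p = 2.56e-05) and -2.52 ± 0.28 (adjusted p = 7.5e-05), with a difference of -0.96 ± 0.38 (adjusted p = 0.0708). For Trpm5 they were -2.97 ± 0.23 (adjusted p = 2.45e-05) and -2.62 ± 0.22 (adjusted p = 1.8e-05), with a difference of -0.35 ± 0.31 (adjusted p = 0.41). None of the 3 differences passed, which does not show that the falls were equal. The difference of Slc30a8 passed in 4 alternatives, 1 of them without RC_Control 1 (adjusted p = 0.00584).

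Other identity genes fell in both models by different amounts. Slc2a2, the glucose transporter of the β-cell membrane, measured 78.8 and 144 CPM in RC_Control, 42.7 and 59.7 in RC_TSC1_KO, 151 and 202 in BKS_Control and 9.27 and 12.5 in BKS_Db, and both mutant groups lay below their controls. Its effects of -1.13 ± 0.31 (adjusted p = 0.0185) and -4.01 ± 0.34 (adjusted p = 2.96e-05) differed by 2.89 ± 0.44 (adjusted p = 0.000743), with the larger fall in Db. Its KO call was lost in 3 of 19 alternative settings, with adjusted p = 0.0648 without RC_Control 2 and 0.11 without RC_TSC1_KO 1. Nkx6-1, a β-cell transcription factor, measured 110.3 and 152 CPM in RC_Control, 12.4 and 14.3 in RC_TSC1_KO, 962 and 905 in BKS_Control and 519 and 507 in BKS_Db, again below control in both. Its effects of -3.30 ± 0.27 (adjusted p = 2.56e-05) and -0.86 ± 0.24 (adjusted p = 0.0151) differed by -2.43 ± 0.35 (adjusted p = 0.000389), with the larger fall in TSC1 KO. Its Db call was lost in 4 of 19 alternative settings, with adjusted p = 0.0679 without BKS_Control 1, 0.103 without BKS_Db 1 and 0.131 without BKS_Db 2. Ucn3, a peptide that marks mature β-cells, measured 201 and 274 CPM in RC_Control, 42.6 and 32.4 in RC_TSC1_KO, 361 and 313 in BKS_Control and 132 and 184 in BKS_Db, without overlap in either model. Its effects of -2.66 ± 0.27 (adjusted p = 5.67e-05) and -1.09 ± 0.26 (adjusted p = 0.00632) differed by -1.57 ± 0.36 (adjusted p = 0.00629). The Db call of Ucn3 was lost in 3 of 19 alternative settings, with adjusted p = 0.0513 without BKS_Control 1 and 0.0982 without BKS_Db 1, and its difference was lost in 1 of 18 alternative settings, with adjusted p = 0.0509 without BKS_Db 2. Of the 417 genes lower in both, the difference passed for 79, with the larger fall in TSC1 KO for 54 and in Db for 25.

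Other genes with large paired falls were spread over signalling and metabolism. Npas4, an activity-regulated transcription factor, measured 63.4 and 56.7 CPM in RC_Control, 6.39 and 3.76 in RC_TSC1_KO, 42.1 and 72.5 in BKS_Control and 2.40 and 2.51 in BKS_Db. Gad1, which makes the transmitter GABA, measured 43.1 and 59.5 CPM in RC_Control, 6.22 and 8.22 in RC_TSC1_KO, 64.7 and 81.1 in BKS_Control and 5.75 and 10.1 in BKS_Db. Ppp1r1a, an inhibitor of protein phosphatase 1, measured 261 and 260.3 CPM in RC_Control, 47.3 and 40.6 in RC_TSC1_KO, 802 and 911 in BKS_Control and 117 and 129 in BKS_Db. The mutant libraries of each gene were below all libraries of their controls. Npas4 changed by -3.52 ± 0.32 (adjusted p = 3.47e-05) and -4.53 ± 0.32 (adjusted p = 9.22e-06), Gad1 by -2.84 ± 0.32 (adjusted p = 9.67e-05) and -3.19 ± 0.30 (adjusted p = 3.05e-05), and Ppp1r1a by -2.56 ± 0.24 (adjusted p = 3.41e-05) and -2.81 ± 0.23 (adjusted p = 1.67e-05). Cox6a2, a tissue-restricted subunit of complex IV, measured 152 and 164 CPM in RC_Control, 28.3 and 11.3 in RC_TSC1_KO, 167 and 208 in BKS_Control and 12.9 and 21.3 in BKS_Db, with effects of -2.97 ± 0.40 (adjusted p = 0.00073) and -3.45 ± 0.40 (adjusted p = 0.00031). The single-effect calls of these 4 genes held in all 19 alternatives.

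Among the 368 genes higher in both models was Stc2. It measured 0.561 and 0.210 CPM in RC_Control, 8.84 and 9.16 in RC_TSC1_KO, 0.438 and 0.178 in BKS_Control and 8.79 and 6.34 in BKS_Db, so that both mutant groups lay well above controls close to the detection limit, with 7 and 4 summed counts in the control groups. Its log2 effects were 4.51 ± 0.51 (adjusted p = 0.000101) in TSC1 KO and 4.50 ± 0.56 (adjusted p = 0.000157) in Db, and the difference between them was 0.007. Frem2, a basement membrane protein, measured 0.673 and 1.05 CPM in RC_Control, 5.73 and 8.22 in RC_TSC1_KO, 1.17 and 1.24 in BKS_Control and 7.43 and 8.86 in BKS_Db. Itgb8, an integrin subunit that activates TGF-β, measured 4.71 and 3.99 CPM in RC_Control, 22.1 and 27.5 in RC_TSC1_KO, 1.75 and 3.20 in BKS_Control and 11.9 and 12.6 in BKS_Db. Lrrc32, which anchors latent TGF-β at the cell surface, measured 22.9 and 10.4 CPM in RC_Control, 80.9 and 58.5 in RC_TSC1_KO, 4.53 and 5.51 in BKS_Control and 21.0 and 20.1 in BKS_Db. The mutant libraries of each were above all libraries of their controls. Frem2 changed by 2.98 ± 0.43 (adjusted p = 0.000422) and 2.74 ± 0.42 (adjusted p = 0.000513), Itgb8 by 2.50 ± 0.30 (adjusted p = 0.000121) and 2.33 ± 0.33 (adjusted p = 0.000327), and Lrrc32 by 2.07 ± 0.32 (adjusted p = 0.000986) and 2.04 ± 0.36 (adjusted p = 0.00189). The single-effect calls of Stc2, Frem2, Itgb8 and Lrrc32 held in all 19 alternatives.

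Fn1, the matrix protein fibronectin, measured 19.9 and 7.04 CPM in RC_Control, 129 and 74.2 in RC_TSC1_KO, 2.92 and 6.75 in BKS_Control and 19.4 and 27.1 in BKS_Db, with both mutant groups above their controls. Its effects were 2.92 ± 0.58 (adjusted p = 0.0116) and 2.29 ± 0.64 (adjusted p = 0.0338), and the Db call was lost in 4 of 19 alternative settings, with adjusted p = 0.147 without BKS_Control 1, 0.054 without BKS_Control 2, 0.068 without BKS_Db 1 and 0.138 without BKS_Db 2. Txnip, an inhibitor of thioredoxin that glucose induces through ChREBP, measured 409 and 384 CPM in RC_Control, 655 and 736 in RC_TSC1_KO, 98.3 and 165 in BKS_Control and 359 and 462 in BKS_Db, again without overlap. Its effects were 0.81 ± 0.28 (adjusted p = 0.0437) and 1.64 ± 0.28 (adjusted p = 0.00104). The KO call of Txnip was lost in 10 of 19 alternative settings, with adjusted p = 0.0834 without RC_Control 1, 0.116 without RC_Control 2, 0.118 without RC_TSC1_KO 1, 0.209 without RC_TSC1_KO 2, 0.0829 without BKS_Db 1 and 0.0814 without BKS_Db 2. Its difference did not pass, except without BKS_Control 2 (adjusted p = 0.0375) and in 2 other alternatives. The difference passed for 40 genes of this class, with the larger rise in TSC1 KO for 18 and in Db for 22.

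**Figure D4:**
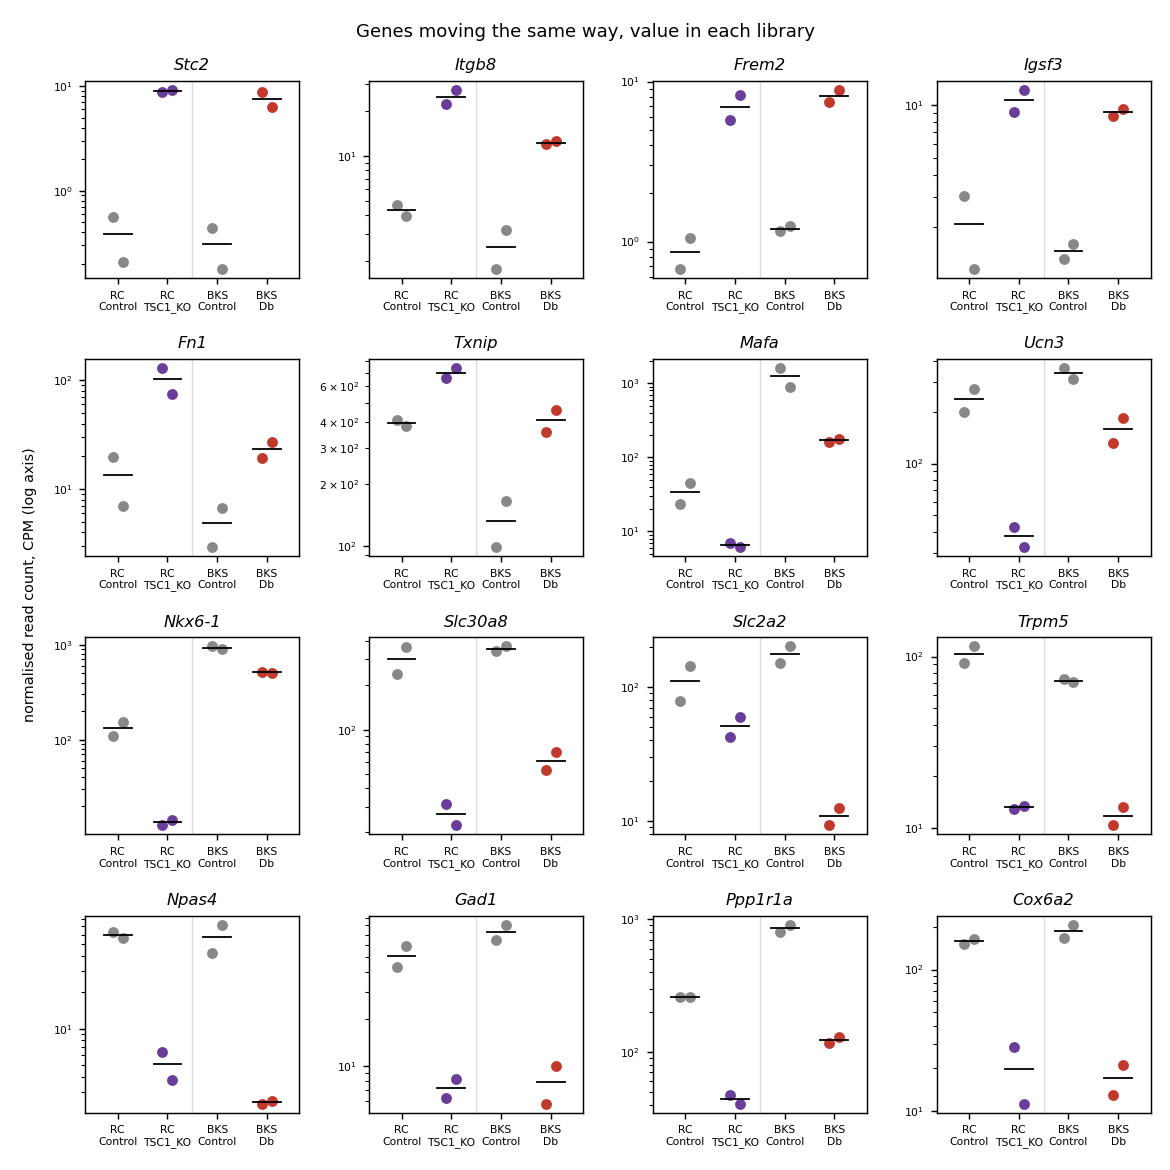
Normalised read count (CPM, log axis) of 16 genes that moved the same way in both models, in each of the 8 libraries, 2 per group; the bar is the group mean. In the first 6 panels (Stc2 to Txnip) the mutant points lie above their controls, and in the other 10 (Mafa to Cox6a2) below, as for Slc2a2 at 9.27 and 12.5 CPM in BKS_Db against 151 and 202 in BKS_Control.

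For some genes 1 effect passed and the other did not. Gast, Cck and Aldh1a3 appeared in Db libraries and hardly elsewhere. They belong to the list of immature and dedifferentiation genes, which did not move as a whole. Of its 20 tested members, 6 rose and 4 fell in Db, beside 18.7% and 15.5% of all genes. The list's median Db effect was 0.28. Gast, encoding gastrin, was at 0 in BKS_Control and in RC_TSC1_KO, at 0 and 0.210 CPM in RC_Control, and at 39.5 and 24.1 CPM in BKS_Db. Against a floor of 3 counts over the 2 BKS_Control libraries, that is at least 132-fold higher. Cck, encoding cholecystokinin, measured 0.224 and 0.210 CPM in RC_Control, 0.164 and 0.235 in RC_TSC1_KO, 0.731 and 0 in BKS_Control and 186 and 118 in BKS_Db, and rose in Db, with a log2 effect of 8.52 ± 0.51 (adjusted p = 8.83e-06). Aldh1a3, an aldehyde dehydrogenase of failing β-cells, measured 3.36 and 0.210 CPM in RC_Control, 1.15 and 0.235 in RC_TSC1_KO, 0.877 and 0.533 in BKS_Control and 186 and 114 in BKS_Db, and rose in Db, with a log2 effect of 7.68 ± 0.97 (adjusted p = 0.00256). The Db libraries of these 3 genes stood far above every other library. In the RC table Gast had 2 summed counts in RC_Control and 0 in RC_TSC1_KO, and Cck had 4 and 2, so no fold is given. Without RC_Control 2 Aldh1a3 passed as lower in TSC1 KO (adjusted p = 0.0154), from 8 counts in the KO libraries.

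For Ins2, Gcgr and Gcg the TSC1 KO effect passed, the Db effect did not, and the difference itself passed. Ins2 measured 106300 and 124400 CPM in RC_Control, 2957 and 3856 in RC_TSC1_KO, 608800 and 945600 in BKS_Control and 471400 and 385600 in BKS_Db, with effects of -5.08 ± 0.68 (adjusted p = 0.000253) and -0.86 ± 0.58 (adjusted p = 0.268) and a difference of -4.22 ± 0.84 (adjusted p = 0.00273); its Db effect passed in 2 alternatives, DESeq2 and the fit of each table alone. Ins1 and Ins2 are close copies whose reads counting may split. Gcgr, the glucagon receptor, measured 46.0 and 43.0 CPM in RC_Control, 1.80 and 0.705 in RC_TSC1_KO, 106 and 84.8 in BKS_Control and 74.9 and 66.2 in BKS_Db, and its effects differed by -4.60 ± 0.41 (adjusted p = 2.41e-05); its Db effect of -0.44 ± 0.23 (adjusted p = 0.147) passed in 2 alternatives, the fit of each table alone and the removal of a GC trend. In Ins2 and Gcgr the KO libraries lay far below RC_Control, and the BKS groups, though they did not overlap, lay closer together. Gcg, the α-cell hormone glucagon, measured 9105 and 12320 CPM in RC_Control, 2721 and 863 in RC_TSC1_KO, 1095 and 2488 in BKS_Control and 2776 and 2473 in BKS_Db, with the BKS groups overlapping and a difference of -3.13 ± 0.77 (adjusted p = 0.0109).

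In cell cycle genes the named differences came from the Db side. Of 35 tested, 6 rose and 1 fell in TSC1 KO, and 3 rose and 12 fell in Db, and the TSC1 KO effect was above the Db effect for 9 and below for 1. The 6 rises in TSC1 KO became 3 without RC_TSC1_KO 1 or RC_TSC1_KO 2. The 12 falls in Db became 6 without BKS_Control 1 or BKS_Db 2 and 7 without BKS_Db 1. Top2a, the topoisomerase of dividing cells, measured 3.92 and 7.14 CPM in RC_Control, 6.22 and 9.16 in RC_TSC1_KO, 30.1 and 20.4 in BKS_Control and 3.20 and 3.42 in BKS_Db. Mki67, the proliferation marker, measured 5.94 and 9.03 CPM in RC_Control, 6.55 and 10.6 in RC_TSC1_KO, 22.6 and 14.9 in BKS_Control and 4.63 and 5.30 in BKS_Db. The Db libraries were below both BKS controls, while the RC groups overlapped. Top2a fell in Db, with a log2 effect of -2.93 ± 0.35 (adjusted p = 0.000109), with a TSC1 KO effect of 0.45 ± 0.36 (adjusted p = 0.38) and a difference of 3.38 ± 0.50 (adjusted p = 0.00041). Mki67 fell in Db, with a log2 effect of -1.92 ± 0.33 (adjusted p = 0.00105), with a TSC1 KO effect of 0.17 ± 0.34 (adjusted p = 0.753) and a difference of 2.09 ± 0.48 (adjusted p = 0.00575). Ppargc1a, a regulator of mitochondrial biogenesis, rose in TSC1 KO, with a log2 effect of 3.37 ± 0.55 (adjusted p = 0.000846), from 0.525 and 0.897 to 6.55 and 8.46 CPM; its difference of 3.48 ± 1.22 (adjusted p = 0.0451) was lost in 13 of 18 alternative settings, with adjusted p = 0.0845 without RC_Control 2, 0.0741 without RC_TSC1_KO 1, 0.108 without RC_TSC1_KO 2, 0.0639 without BKS_Control 1, 0.301 without BKS_Control 2, 0.0799 without BKS_Db 1 and 0.104 without BKS_Db 2.

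In a list of 27 sterol and fatty acid synthesis genes, 9 fell and 1 rose in TSC1 KO, and 8 rose and 4 fell in Db. The 8 rises in Db became 5 without BKS_Control 2 and 4 without BKS_Db 2. The 4 falls in Db became 2 without BKS_Control 1, BKS_Control 2 or BKS_Db 1 and 1 without BKS_Db 2. Fasn, fatty acid synthase, measured 47.1 and 57.1 CPM in RC_Control, 50.3 and 47.2 in RC_TSC1_KO, 92.9 and 92.1 in BKS_Control and 236 and 264 in BKS_Db: the RC groups overlapped and the Db libraries lay above their controls, and the effects differed by -1.53 ± 0.29 (adjusted p = 0.00194). Of 23 glycolysis genes, 7 fell and 1 rose in TSC1 KO, and 6 rose and 2 fell in Db. The 7 falls in TSC1 KO became 3 without RC_TSC1_KO 2. Of 78 cytosolic ribosomal protein genes, whose many processed copies make counts uncertain, 2 fell in TSC1 KO, and 24 rose and 12 fell in Db. The 12 falls in Db became 7 without BKS_Control 2 or BKS_Db 2.

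Of all genes tested, 12.9% rose and 15.0% fell in TSC1 KO, and 18.7% rose and 15.5% fell in Db. Counts of the following lists that lie near these shares are not read as a result about a list. Of 32 genes of the TCA cycle, pyruvate entry and NADH shuttles, 2 rose and 1 fell in TSC1 KO, and 11 rose and 5 fell in Db. The 11 rises in Db became 7 without BKS_Control 2 and 6 without BKS_Db 2. The 5 falls in Db became 2 without BKS_Control 1, 3 without BKS_Control 2 and 1 without BKS_Db 2. Of 23 fatty acid oxidation genes, 2 rose and 1 fell in TSC1 KO, and 3 rose and 5 fell in Db. The 5 falls in Db became 3 without BKS_Control 1, 1 without BKS_Control 2, 2 without BKS_Db 1 and 0 without BKS_Db 2. Of 17 ChREBP and glucose-responsive genes, 4 rose and 3 fell in TSC1 KO, and 7 rose and 3 fell in Db. The 4 rises in TSC1 KO became 2 without RC_Control 2 and 1 without RC_TSC1_KO 2. Among 32 lysosome and autophagy genes, 1 rose and 5 fell in TSC1 KO and 11 rose and 5 fell in Db. The 5 falls in TSC1 KO became 3 without RC_TSC1_KO 2. The 5 falls in Db became 2 without BKS_Control 1, 3 without BKS_Db 1 and 0 without BKS_Db 2. Among 27 antioxidant enzymes these counts were 5 and 4, and 9 and 3. The 5 rises in TSC1 KO became 3 without RC_Control 2 and 2 without RC_TSC1_KO 2. The 4 falls in TSC1 KO became 2 without RC_TSC1_KO 1. Among 18 hypoxia genes they were 5 and 4, and 2 and 3. The 5 rises in TSC1 KO became 3 without RC_TSC1_KO 1. The 4 falls in TSC1 KO became 2 without RC_TSC1_KO 2. Among 18 mitochondrial biogenesis regulators they were 2 and 0, and 5 and 4. The 5 rises in Db became 1 without BKS_Control 1, 2 without BKS_Db 1 and 0 without BKS_Db 2. The 4 falls in Db became 2 without BKS_Db 1 and 0 without BKS_Db 2. Among 20 genes of immature or dedifferentiated β-cells they were 3 and 4, and 6 and 4. The 6 rises in Db became 3 without BKS_Db 1. The 4 falls in Db became 1 without BKS_Db 2.

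The β-cell libraries of the series gave a readout that the classes had not used. In Adult (P45, n = 3) against Neonatal (P6, n = 3) β-cells, 484 of 14304 genes (3.38%) were higher and 515 (3.60%) lower in Adult by edgeR's quasi-likelihood test. Of 322 genes higher in both models that this table could test, 45 (14.0%) were lower in Adult and 9 (2.80%) higher, and their median log2 difference was -0.43, beside -0.025 for all genes. Of 402 genes lower in both, 29 (7.21%) were higher in Adult and 12 (2.99%) lower, with a median of 0.135. Among genes lower in TSC1 KO and higher in Db, 42 of 597 (7.04%) were higher and 33 (5.53%) lower in Adult. In the reverse class 11 of 176 (6.25%) were higher and 9 (5.11%) lower. Leaving out 1 Adult library took the 45 genes to 23 to 25 and the 29 to 18 to 20, against 1.25% to 1.46% and 1.44% to 1.59% of all genes, and the shares stayed above those of all genes at 6.85% to 7.53% and 4.43% to 4.94%. Leaving out 1 Adult library took the 42 genes to 18 to 21 and the 33 to 9 to 12, and the 11 and 9 of the reverse class to 5 to 8 and 3 to 4. With library size only, the class lower in TSC1 KO and higher in Db had 24 genes higher and 57 lower in Adult. Without Neonatal 1, 3 genes of the reverse class were lower in Adult, and without 1 of the Neonatal libraries that carry no number 7 were higher. These are counts without a test of the lists.

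**Figure D5:**
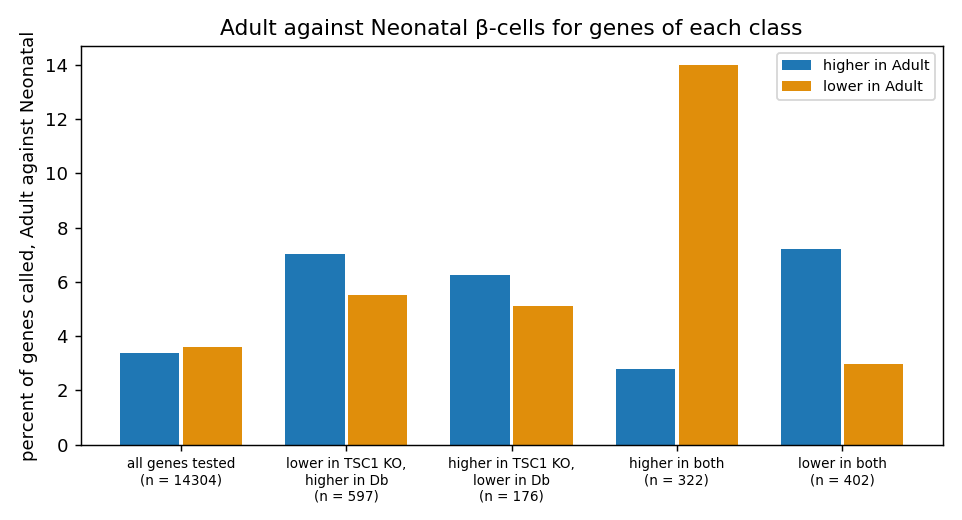
Percent of genes called higher (left bar) or lower (right bar) in Adult than in Neonatal β-cells, for all 14304 genes tested in that table and for the tested genes of each class (n in brackets). The tallest bar is the 14.0% of genes higher in both models that were lower in Adult.

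Single genes of the classes followed that count in part. G6pc2, a glucose-6-phosphatase that fell in both models, was higher in Adult, with a log2 difference of 1.49 ± 0.20 (adjusted p = 0.000557). Ucn3 was higher in Adult, with a difference of 1.34 ± 0.24 (adjusted p = 0.00329), as was Trpm5, with 1.35 ± 0.26 (adjusted p = 0.00461). Frem2, higher in both models, was lower in Adult, with a difference of -2.26 ± 0.64 (adjusted p = 0.042). Mafa and Nkx6-1, which fell in both models, had Adult differences of 0.18 ± 0.17 (adjusted p = 0.627) and 0.25 ± 0.15 (adjusted p = 0.375). The fall of G6pc2 in Db had an adjusted p of 0.0499 by edgeR, the last same-way mover inside the threshold, and was lost in 9 of 19 alternative settings, with adjusted p = 0.0644 without RC_TSC1_KO 1, 0.0639 without RC_TSC1_KO 2, 0.38 without BKS_Control 2, 0.333 without BKS_Db 1 and 0.11 without BKS_Db 2; Grin1 (adjusted p = 0.05 in Db by edgeR) was the first outside.

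Other motifs were counted in the promoter windows of each class. The cyclic AMP response element TGACGTCA lay in 22 of 464 windows (4.74%) of genes lower in TSC1 KO and higher in Db, 3 of 186 (1.61%) of the reverse class and 381 of 11028 (3.45%) of all. Chgb, the granule gene described above, holds it, shown in capitals in the 250 bases upstream of its start.
Chgb (chr2:132781392-132781641, plus strand): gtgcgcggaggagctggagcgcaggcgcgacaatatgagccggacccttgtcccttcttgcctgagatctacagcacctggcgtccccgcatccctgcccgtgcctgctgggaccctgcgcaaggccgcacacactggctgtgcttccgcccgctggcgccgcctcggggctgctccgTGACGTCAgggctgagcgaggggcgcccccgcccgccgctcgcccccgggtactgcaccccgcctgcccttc
The element TGACGTGG of the unfolded protein response lay in 10 of 464 windows (2.16%) of genes lower in TSC1 KO and higher in Db, in 8 of 291 (2.75%) of genes lower in both and in 117 of 11028 (1.06%) of all. It lay in 0 of the 25 windows of the ER chaperone and unfolded protein response list. No other sequence of that response was searched, so this does not show that the windows lack its elements. The E-box CACGTG, which also lies inside the lysosomal CLEAR element TCACGTGA, lay in 9.70%, 12.9%, 11.5% and 10.3% of the windows of the 4 classes in the order given above, beside 11.3% of all. The Maf element lay in 18 of 186 windows (9.68%) of genes higher in TSC1 KO and lower in Db and in 4.47% of all.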

How the data were processed

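Raw read counts per gene, as deposited by the authors, were used for 4 islet groups of 2 libraries and for 3 Adult and 3 Neonatal β-cell libraries. Per the submitters' processing notes, the tools named were cutadapt 1.13, GSNAP, HTSeq 0.7.1 and DESeq2 1.16.0, with builds NCBIM37 and mm9; the strand setting of the counting is not stated there, so overlapping, antisense and near-copy genes (Ins1 and Ins2, ribosomal proteins) are uncertain. Per the labels' protocols, libraries came from total RNA with a SMARTer stranded kit. In the BKS table, rows that name no gene were left out; genes took 35.1% to 44.3% of its listed reads and reads on no feature 42.5% to 49.6%. The 2 columns headed Neonatal_3 were used as Neonatal replicates without a number. Symbols matched 32620 of 37310 identifiers (87.4%).

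The 2 islet tables were joined on the identifier. Genes were kept by edgeR's filterByExpr (minimum count 10, minimum total 15), scaled by TMM and fitted together with 1 mean per group, leaving 4 residual degrees of freedom. Effects and their difference were tested by edgeR's quasi-likelihood test with Benjamini-Hochberg adjustment over 15702 genes at 0.05; errors are standard errors of log2 effects. Adjusted p-values are from that test throughout. The classes need both effects past the threshold, so the difference test of an opposite mover is no separate evidence and is not given for them. R 4.3.3, edgeR 4.0.16, limma 3.58.1 and DESeq2 1.42.0 were used. The β-cell table was fitted separately, so levels are not compared across it. Replicates differed beyond sampling noise, with a chi-square per degree of freedom of 7.87 to 17.8.

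Named genes were a set list, the 10 genes of each class with the largest smaller effect, the 10 largest differences each way, and 4 members of each gene list; exceptions are stated. Some genes that this choice gave are not reported here. The members and lists were chosen with earlier results of these data known. On simulated data with 200 changed genes among 15702, the right class was found for 10 of 100 genes changed by a log2 of 1. It was found for 91 of 100 changed by 2. In that simulation 0 fell in a wrong class, and 1 of 14956 unchanged genes was put in a class. Far more genes were called in the data, 4377 in TSC1 KO and 5370 in Db, and no gene was simulated with a change in 1 model only. The simulated error rates therefore do not carry over to the classes. Alternatives covered scaling, filtering, tool, thinning to equal total counts (not to equal counts over genes other than insulin and mitochondrial transcripts), GC trend, replicate block and leaving out each library.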

Additional observations from a re-analysis of the deposited data

How the results depend on the processing

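No gene went from an opposite to a same-way class in 19 alternatives, and 163 genes lower in TSC1 KO and higher in Db, 20 of the reverse class, 49 higher in both and 96 lower in both stayed in their class in every one. Scaling by library size alone gave 868 differences above, 1161 genes higher in TSC1 KO, 1248 lower in Db, 74 higher in TSC1 KO and lower in Db, 240 higher in both and 275 lower in both, and turned the median differences of the hypoxia list to -0.17 and of the AMPK list to -0.34; the cause was not tested. Each table fitted alone, which gives no difference between effects, called 1252 genes higher and 1460 lower in TSC1 KO. Thinning to the smallest library gave 1867 higher in Db and 209 higher in both, and removing a GC trend gave 1574 lower in Db. Leaving out 1 library gave 943 to 2421 differences above, 925 to 2163 genes higher and 1427 to 2926 lower in TSC1 KO, 1460 to 3525 higher and 743 to 3189 lower in Db, and classes of 303 to 847, 80 to 382, 141 to 485 and 180 to 631 genes. With the replicate block, 1723 differences lay above and 2575 below, and the classes held 507, 198, 305 and 357 genes; the numbers were only shared, with correlations of -0.05 (RC) and -0.03 (BKS) between groups. No paired analysis was possible for the β-cell table because its columns share fewer numbers than its samples. Where a group has 1 library left, it is assumed to vary like the others.

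In the Adult readout, scaling by library size alone gave 24 higher and 57 lower among genes lower in TSC1 KO and higher in Db, 7 higher in the reverse class and 23 lower among genes lower in both. DESeq2 gave 14 lower in the reverse class, 14 higher among genes higher in both and 19 lower among genes lower in both. Without the low-count filter the genes higher in both had 16 higher, and the genes lower in both had 44 higher and 20 lower. Leaving out 1 β-cell library gave, among genes lower in TSC1 KO and higher in Db, 18 to 50 higher and 9 to 44 lower in Adult. The ranges were 5 to 16 and 3 to 11 in the reverse class, 4 to 14 and 23 to 51 among genes higher in both, and 18 to 42 and 8 to 23 among genes lower in both.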
